A study of Homo sapiens with 4 samples.

Results

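The regions described here are the m6A peaks that the authors placed in the 5′ UTR and found in both conditions of a YTHDF2 knockdown experiment. They were chosen by the peak calls of both lists, as the distinct control peaks with a deposited 5′ UTR annotation whose exonic blocks shared at least 1 bp with a block of any knockdown peak of the same strand. Of the 4812 control peaks annotated to a 5′ UTR, 2955 met this rule, in 2297 genes, out of 31057 distinct control peaks in all. The presence of a peak in both lists was thus the criterion of choice and is given below as a description, without a test.

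The cells were A549, a human lung adenocarcinoma line, with a control vector in the condition named shNC and with an shRNA directed at YTHDF2 in the condition named shY2-2. Both were stable lines made with lentivirus and selected with puromycin, and a single shRNA sequence represents the knockdown in these libraries. Fragmented poly(A) RNA was sequenced before (input) and after precipitation with an antibody to m6A (IP), which gave 1 library of each kind per condition and 4 in all, so differences between shNC and shY2-2 cannot be set against the spread of replicates. The RNA of YTHDF2 itself was at 3.56 FPKM (shNC) and 1.02 FPKM (shY2-2). Its log2 ratio was -1.18 with a pseudocount of 1 added to each FPKM, which understates changes of low genes. The epithelial keratins KRT8 (an FPKM of 523 and 322) and KRT18 (388 and 281) were high in both inputs. Other epithelial markers were lower, with KRT19 at 25.9 and 12.9, CDH1 at 9.99 and 5.28 and EPCAM at 2.02 and 1.2. The leukocyte marker PTPRC was at 0.0999 and 0.0394 and the alveolar marker SFTPC at 0.0303 and 0.067. The fibroblast markers were at 0.834 and 1.64 (COL1A1) and at 0.71 and 0.118 (COL3A1).

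m6A is written on mRNA by the METTL3 complex, mostly where an A stands in the letters DRACH, of which GGAC is the most used core, and YTHDF2 is a reader protein that brings methylated mRNA to deadenylation and decay. Most m6A lies near stop codons and in 3′ UTRs. A smaller part lies in 5′ UTRs, where it has been linked to translation that does not need the cap-binding complex, and antibodies against m6A also bind m6Am, the methylated A that can stand next to the cap, so that peaks at transcript starts can hold either mark.

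The following windows show sequence from the peaks and genes described below. The first 6 are 24 nt stretches of the GRCh38 reference sequence around a GGAC (capitals) inside the part of a peak that both lists shared, chosen because the peaks of these genes carry the results below: very high enrichment in both lists (HS2ST1, FBL, PUS1), a large fall in enrichment (CNOT6), the gene the study followed (AXIN1) and the m6A writer (METTL3). The next 3 are the first 20 nt of transcripts of ribosomal protein genes, with the first base in capitals, since these transcripts form the most complete gene group among the members.
HS2ST1: cgggggtcggGGACtgaggcagta
FBL: tgaacgccgcGGACtccggagccg
PUS1: gggcgtcaggGGACgttggagttg
CNOT6: gcagcgggcgGGACtggtatggtg
AXIN1: accgcgcgcgGGACagattgattc
METTL3: agaagcagctGGACtctctgcggg
RPS14: Ctctctttccggtgtggagt
RPS13: Cctttcgttgcctgatcgcc
RPS10: Cctttccagccccggtaccg

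All coordinates are of GRCh38. The HS2ST1 window is chr1:86914725-86914748 (+ strand), that of FBL chr19:39846319-39846342 (- strand), that of PUS1 chr12:131929413-131929436 (+ strand), that of CNOT6 chr5:180494662-180494685 (+ strand) and that of METTL3 chr14:21511166-21511189 (- strand). The AXIN1 window lies across an exon junction between chr16:347094-352379 (- strand). Counted from the first base of the start codon of the reference transcript, the A of GGAC stood at -300 nt in HS2ST1, -30 nt in FBL, -298 nt in PUS1, -92 nt in CNOT6 and -80 nt in AXIN1, all in the 5′ UTR, and at 46 nt in METTL3, inside the coding sequence. The transcript starts are at chr5:150449720-150449739 (RPS14), chr11:17077648-17077667 (RPS13) and chr6:34426050-34426069 (RPS10), all on the - strand, and each opens with a C followed by pyrimidines, the form known as a 5′ terminal oligopyrimidine tract of mRNAs for the translation machinery. The control peak of RPS14 with the highest lower fold enrichment covered nt 14 to 37 of this transcript, and that of RPS13 nt 1 to 177.

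Peaks of the 5′ UTR were shared about as often as those of the 3′ UTR. In the control list 61.4% of the 5′ UTR peaks (60.0 to 62.8%, a 95% Wilson interval) were met by a peak of the shY2-2 list, beside 61.0% of 18357 3′ UTR peaks, 40.7% of 7888 peaks in other exons and 55.9% of all control peaks. Such an interval covers only how many peaks were counted. In the other direction, 66.2% of the 4359 5′ UTR peaks of the shY2-2 list met a control peak. Sharing went with RNA level in both classes. Where the gene's FPKM in the control input was under 1, 45.3% of 415 5′ UTR peaks were shared, and where it was 25 or more, 79.5% of 816 were, against 47.6% and 82.6% of the 3′ UTR peaks of such genes. The number of reads behind a peak or an FPKM is unknown.

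The overlap was mostly large. The median share of a control peak covered by its partner, taken as the shY2-2 peak with the longest overlap, was 87.1%, 2026 members (68.6%) overlapped by at least 50% of each peak, and 261 (8.83%) had the same blocks in both lists. The partner was annotated to a 5′ UTR for 2657 members, to an exon for 160 and to a 3′ UTR for 138. At the edge of the rule, 42 members overlapped by less than 30 nt. Peaks in ABHD17C and ARHGEF1 entered with 1 nt of overlap (fold enrichment 1.34 and 1.48 in ABHD17C, 1.42 and 1.65 in ARHGEF1, control list first), and peaks in SPATA6L and GPI stayed out with gaps of 4 and 18 nt (2.49 and 1.20 in the control list). The members are not all separate regions, since 621 overlapped another member, and 174 shY2-2 peaks served as partner for more than 1 member. Of the genes, 1792 held 1 member, 395 held 2 and 110 held 3 or more, up to 7 in ZNF410, a zinc finger gene.

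The label 5′ UTR was checked against 1 reference transcript per gene, the canonical transcript of GENCODE release 44. For 2872 members this transcript was coding, and 1810 of them (63.0%, 61.2 to 64.8%) touched its 5′ UTR, while 90.2% touched a 5′ UTR of at least 1 transcript of the gene. A peak of this class was seldom a 5′ UTR region alone. Only 122 members (4.25%) lay wholly in the reference 5′ UTR, 453 touched the 5′ UTR and no other part of the spliced transcript, and 1204 (41.9%) ran from the 5′ UTR into the coding sequence. A further 536 (18.7%) touched coding sequence only, 286 reached the 3′ UTR and 393 (13.7%) had no base in the reference transcript. By bases rather than by peaks, 16.0% of the members' 1183475 nt were reference 5′ UTR, 39.6% coding, 5.66% 3′ UTR, 22.6% intron of the reference transcript and 16.1% beyond its ends. In the shared 3′ UTR peaks the intron share was 8.51% and the part beyond the ends 4.39%, with 64.5% in the 3′ UTR itself. The peak caller works on the exons of all annotated transcripts, so intronic and outer bases of the reference can be exons of other transcripts.

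**Figure D1:**
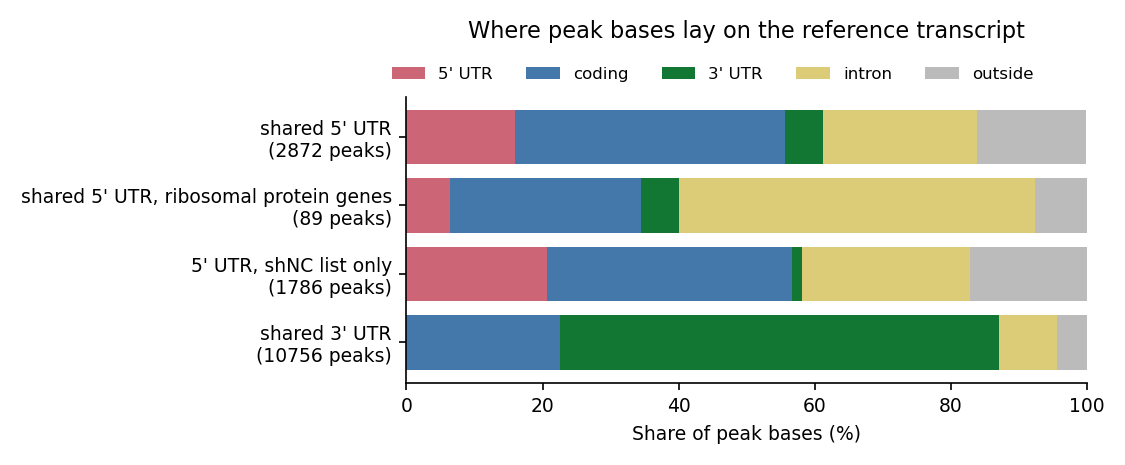
Share of peak bases (x axis, percent) in the 5′ UTR, coding sequence, 3′ UTR and introns of the reference transcript and beyond its ends, for 4 sets of peaks of the control list in coding genes. The shared 5′ UTR peaks had 16.0% of their bases in the 5′ UTR and 39.6% in coding sequence, and those of ribosomal protein genes had 52.3% in introns.

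The members were chosen by a 5′ UTR annotation, so a place near the start codon was in part given by the rule. The first base of the start codon lay within the span of 1372 of 2872 members (47.8%), gaps between blocks included. Coverage was highest, at 46.6% of bases, over the first 50 nt of the coding sequence. It fell to 26.8% at 200 to 249 nt and to 4.16% at 850 to 899 nt downstream. The upstream side was flatter, with 33.6% at 300 to 251 nt before the start codon among transcripts with a 5′ UTR of that length. Peaks found only in the control list had the same shape at a lower level, with 26.9% over the first 50 nt. A member reached to within 100 nt of the transcript start in 1626 cases (56.6%, 54.8 to 58.4%) and to within 25 nt in 1148 (40.0%). For the peaks of the control list alone, the share within 100 nt was 35.8%. The members were also longer, with a median of 330 nt against 210 nt, and a longer peak covers more positions.

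**Figure D2:**
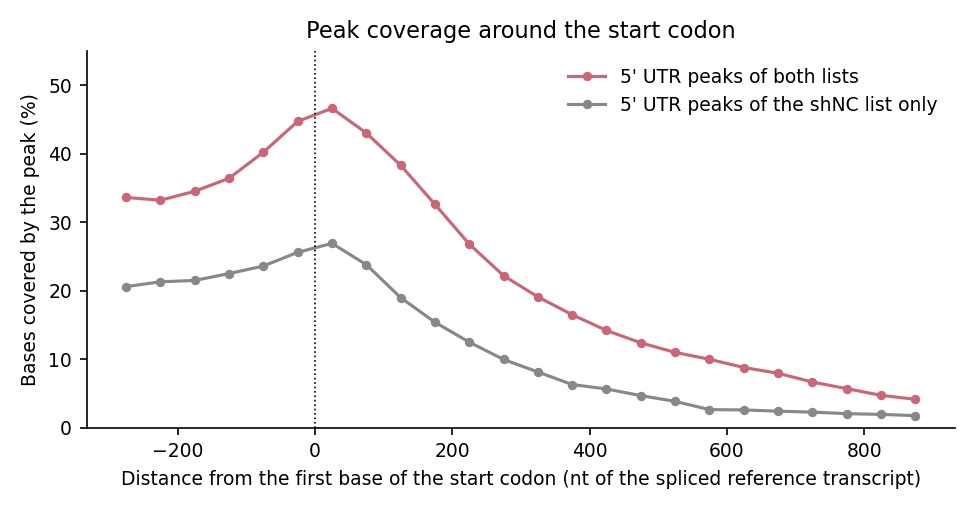
Share of the bases of a peak's own reference transcript that the peak covered (y axis, percent). The x axis gives 50 nt steps of distance from the first base of the start codon (nt along the spliced reference transcript, dotted line at 0). A transcript with several peaks enters separately for each of them. The peaks of both lists reach 46.6% just after the start codon and the peaks of the control list only reach 26.9% there.

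They spanned 2 or more exons in 1932 cases (65.4%), against 51.5% of the 5′ UTR peaks of the control list only and 27.2% of the shared 3′ UTR peaks, and up to 12 exons. Their median GC content was 56.2%, close to the 55.9% of the 5′ UTR peaks of the control list only, against 47.3% in shared 3′ UTR peaks. GGAC stood in 2274 members (77.0%, 75.4 to 78.4%), in 58.3% of the 5′ UTR peaks of the control list alone and in 68.6% of shared 3′ UTR peaks. With peaks of 200 to 400 nt only, the shares were 74.9%, 68.9% and 64.1%. Counted per length, members held 4.84 GGAC per kb, the control-only peaks 4.63 and the shared 3′ UTR peaks 3.93. Within the 1204 members that spanned the start codon region from 5′ UTR to coding sequence, GGAC occurred at 5.62 per kb in the 5′ UTR part and 5.52 per kb in the coding part; a match to these letters is not a methylated site.

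The first base of the transcript is of interest because m6Am needs an A next to the cap. Among 2121 coding genes with a shared 5′ UTR peak, the reference transcript began with A in 45.3%, with G in 40.6% and with C in 13.9%. Over all 10686 coding genes kept by RNA level, A began 45.9%, G 42.3% and C 11.4%. In the 1041 genes whose member reached to within 25 nt of the start, A began 43.6%. A start of C followed by 4 pyrimidines was found in 8.06% of member genes, beside 5.79% of all coding genes kept, and without the ribosomal protein genes in 6.07%, beside 5.28%. Reference starts were not measured in these cells. Member genes had a median 5′ UTR of 109 nt, against 132 nt over all coding genes kept and 157 nt for genes with a 5′ UTR peak in the control list only.

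Fold enrichment, the deposited ratio of IP over input within a condition, was modest for most members. Its median was 2.41 in the control list and 2.31 for the shY2-2 partners, with quartiles of 1.78 to 3.71 and 1.70 to 3.63. Shared 3′ UTR peaks had medians of 2.25 and 2.12. Both values were at least 4 in 416 members, at least 10 in 96 and under 1.5 in 198. An authors' FDR of at most 0.001 in both lists was reached by 1366 members and of at most 0.05 by 2014, while 296 passed 0.05 in neither. In the 1547 genes that held both a shared 5′ UTR and a shared 3′ UTR peak, the 5′ peak had the higher fold enrichment in both lists in 607 genes (39.2%) and the lower in both in 519 (33.5%). The order differed between the lists in the remaining 421 genes.

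Many high values were shared by unrelated peaks. Among the 674 members with a control fold enrichment of at least 4, 431 (63.9%) held a value found in at least 20 peaks of the control list, such as 6.87, which stood in 47 of these members, and 38.3% of these 431 had an FDR of at most 0.001, against 97.5% of the others. The same held for the shY2-2 values, with 428 of 662 repeated (64.7%). Of the 416 members at 4 or more in both lists, 220 had an FDR of at most 0.001 in both and 124 held an unrepeated value in both. The genes named next were taken from the 1043 genes with a member at that FDR in both lists and an FPKM of at least 1 in both inputs.

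The strongest members were in genes of many functions. FBXW4, an F-box protein of a ubiquitin ligase, had a 750 nt peak with a fold enrichment of 151 in the control list and 180 in the shY2-2 list, nearly all of it (725 nt) in coding sequence. SENP3, a SUMO protease of the nucleolus whose exons are also annotated to a readthrough with EIF4A1, had 143 and 116, with 356 nt in the 5′ UTR. PUS1, which makes pseudouridine in tRNA, had 88.7 and 245, and AEBP2, a partner of Polycomb complex PRC2, had 74.8 and 55.5. HS2ST1, a heparan sulfate sulfotransferase that shares exon sequence with another annotated gene, had 36.6 and 42.8 over the same 271 nt in both lists, all of it 5′ UTR, from nt 14 to nt 284 of the transcript.

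FBL encodes fibrillarin, the methyltransferase of rRNA. Its 685 nt peak had the same extent in both lists, with a fold enrichment of 36.1 and 37.7 and its FDR listed as minus infinity on the log scale. CAPNS1, the small calpain subunit, had 48.8 and 56.4 with 227 of 451 nt in an intron of the reference transcript. In SYNCRIP, an RNA-binding protein whose exons overlap another annotated gene (82.4 and 241), in MGAT1, an enzyme of N-glycan synthesis (43.5 and 55.5), and in BCL2L12 (33.1 and 38.7), the peak had no base inside the reference transcript. Of these 10 genes, 6 were higher in the shY2-2 list by less than 2-fold, 2 were lower by less than 2-fold and PUS1 and SYNCRIP were higher by a log2 ratio of 1.47 and 1.55.

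**Figure D3:**
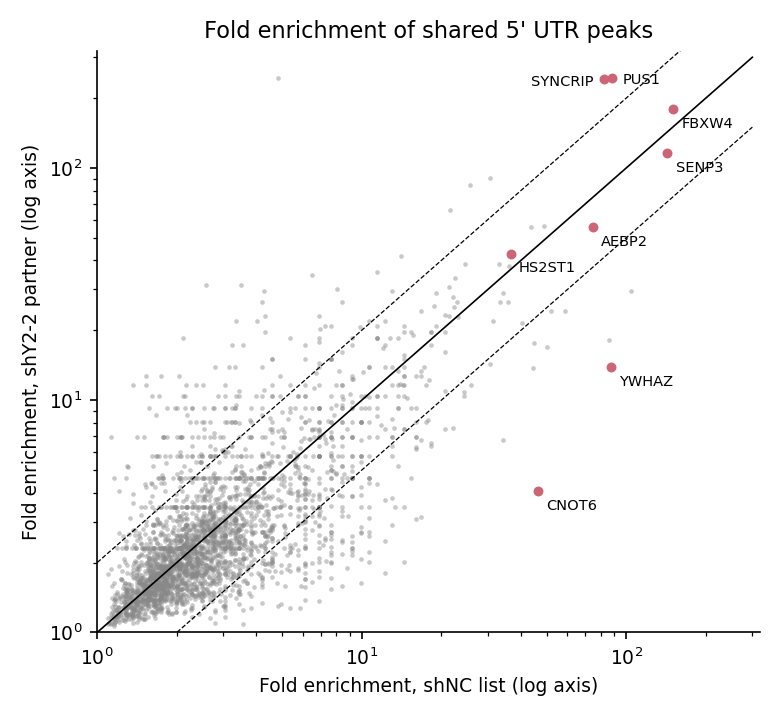
Fold enrichment of 2955 members in the control list (x axis, log scale) and of the shY2-2 partner with the longest overlap (y axis, log scale), 1 point per member, with lines at equal values (solid) and at 2-fold difference (dashed). FBXW4 (151 and 180) and SENP3 (143 and 116) lie near equality and CNOT6 (46.5 and 4.05) far below it. Rows and columns of points at high values are the repeated values.

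Fold enrichment differed little between the lists over the whole set. The median log2 ratio of shY2-2 to shNC was -0.05 (exact binomial interval of the median -0.07 to -0.03), beside -0.06 over all 17354 shared peaks, and 1613 members were lower, 1322 higher and 20 equal. Across the members Spearman's rho between the lists was 0.675, beside 0.679 over all shared peaks, where overlapping peaks and peaks of a single gene are not independent. A log2 ratio above 1 was found in 213 members (7.21%), beside 5.24% of all shared peaks, and below -1 in 219 (7.41%), beside 5.74%. Among the 2026 members with at least 50% of each peak in common, 106 (5.23%) were above 1 and 131 (6.47%) below -1, beside 3.14% and 4.64% of such shared peaks of all classes. The spread was wider in the members, with an SD of 0.74 on the log2 scale against 0.65 over all shared peaks. Peak length moved with these differences. Members above 1 had a median length of 300 nt in the control list and a partner of 541 nt, those below -1 had 360 and 295 nt, and the 2523 members within 2-fold had 330 and 331 nt. The part of length in the differences was not tested.

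Among these 1043 genes the largest falls were in CNOT6, CDIPT, YWHAZ, RPS10 and SAP30BP. CNOT6, a deadenylase of the CCR4-NOT complex, went from 46.5 in the control list to 4.05 in the shY2-2 list, a log2 ratio of -3.52, with 352 of its 450 nt in the 5′ UTR and an FPKM of 7.64 and 4.65. Its shY2-2 value of 4.05 was held by 179 peaks of that list, and several further values named here and next were repeated too. CDIPT, the synthase of phosphatidylinositol, had 12.2 and 1.80 with 401 of 419 nt in common and 369 nt of 5′ UTR, values held by 80 and 129 peaks of their lists. YWHAZ, a 14-3-3 protein, had 87.7 and 13.9 in a peak outside the reference transcript, the latter held by 79 peaks. The RPS10 peak (34.3 and 6.75) had 235 of 269 nt in an intron, and its shY2-2 partner was 449 nt long. A second RPS10 member, of the same extent as that partner, had 9.92 and 6.75, a log2 ratio of -0.56. RPS10 shares exon sequence with a readthrough to NUDT3. SAP30BP had 9.92 and 2.08, held by 219 and 171 peaks.

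The largest rises among them were in PUS1, SNRPC, PHF23, DDX42 and PARK7, and in each the partner was longer. A second PUS1 peak of 143 nt (4.83) met the same long shY2-2 peak (245, 1464 nt) as the first. SNRPC, a protein of the U1 snRNP, had 1.53 over 209 nt and 12.7 over 832 nt. PHF23 had 4.27 and 29.5 in peaks of 150 and 928 nt. DDX42, an RNA helicase, had 4.20 and 26.6 in peaks of 91 and 240 nt, wholly within the 5′ UTR in the control list. PARK7, which guards against oxidative stress, had 2.03 and 12.7 with 989 and 2127 nt. The value of 12.7 in SNRPC and PARK7 was held by 112 peaks of the shY2-2 list, and that of 4.20 in DDX42 by 378 peaks of the control list.

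RNA level was compared in the input libraries. It was not used by the rule, but it is not independent of it, since a peak had to be called in both conditions and the share of called peaks rose with FPKM, so the ratios of member genes are a description. The log2 ratio of shY2-2 to shNC was taken after adding a pseudocount of 1 to each FPKM, which understates changes of low genes, and genes that reached an FPKM of 1 in either input were kept. In a bulk library fewer cells with a transcript and less of it per cell cannot be told apart. Of 12268 kept genes, 2140 (17.4%) had a shared 5′ UTR peak. Their median log2 ratio was 0.08 (0.06 to 0.10), beside 0.00 over all kept genes, and 1282 of them (59.9%) were higher in shY2-2, beside 50.3%. Genes with a shared 3′ UTR peak and no shared 5′ UTR peak, chosen by the same overlap, had a median of 0.01. A ratio above 1 was found in 20 member genes (0.935%), beside 0.986% of all kept genes, and a ratio below -1 in 33 (1.54%), beside 2.14%. The first share was near the background.

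Member genes were more abundant, with a median FPKM of 10.3 in the control input against 5.18 over all kept genes, and the ratio rose with abundance in all genes. At a mean FPKM of 5 to 10 the median was 0.08 in 487 member genes and -0.02 in 2044 genes without a member, at 10 to 20 it was 0.09 and 0.04, at 20 to 50 it was 0.11 and 0.08, and under 2 it was -0.05 and -0.06. At 50 or more, the member median of 0.22 was 0.15 without the ribosomal protein genes, beside 0.14 in genes without a member. Ribosomal protein genes were not taken out of the genes without a member. By strength of the peak, the median was 0.07 in genes whose lower fold enrichment was under 1.5, 0.08 at 1.5 to 2, 0.11 at 2 to 4, 0.06 at 4 to 10 and -0.02 in 89 genes at 10 or more.

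**Figure D4:**
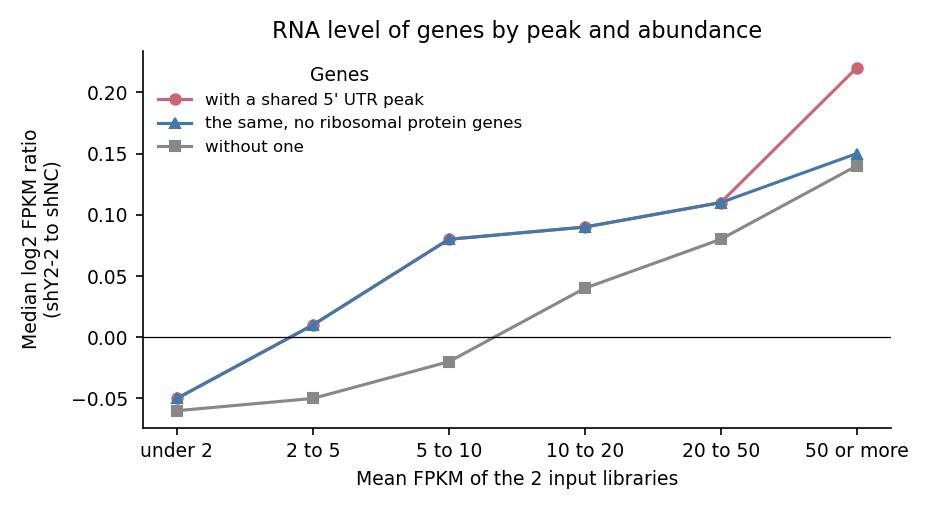
Median log2 FPKM ratio of shY2-2 to shNC (y axis) by the mean FPKM of both inputs (x axis, 6 classes), for genes with a shared 5′ UTR peak, for these without the ribosomal protein genes, and for kept genes without such a peak (ribosomal protein genes included). All 3 lines rise with abundance, and the member genes lie above the others by 0.10 at most below an FPKM of 50.

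Among the highest RNA ratios of member genes were those of GABARAPL1, ZNF71, TIGD1 and ARL2BP. GABARAPL1, an autophagy protein of the ATG8 family, had 2.81 FPKM in shNC and 14.7 in shY2-2 (log2 ratio 2.05), with a peak of 143 nt coding and 156 nt intron at a fold enrichment of 4.20 and 1.57. These fold enrichments were held by 378 peaks of the control list and 157 of the shY2-2 list. ZNF71 had 0.41 and 3.96, TIGD1 0.578 and 3.62, and ARL2BP 5.86 and 18.3. ZNF71 and TIGD1 share exon sequence with another annotated gene.

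At the other end, TMSB4X, the actin-binding thymosin beta-4, had an FPKM of 529 in shNC and 103 in shY2-2 (-2.35). Its first member, at 6.90 and 3.96, had 299 of 360 nt in an intron of the reference transcript, and its second, at 5.49 and 5.99 over the same 868 nt, ran through to the 3′ UTR. C3, a complement component, had 15.1 and 2.45 (-2.22), with a peak at 3.49 and 3.20 outside the reference transcript. ANXA3, an annexin, had 15.3 and 3.57 (-1.83), and its peak met its partner in 1 nt only. LBHD1, which shares exons with C11orf98, had 6.46 and 1.20 (-1.76) and 4 members, which overlap in part. Fold enrichment is taken relative to each condition's own input.

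Gene lists of the translation machinery, stress response and m6A pathway were followed next, and a list's share of member genes is to be read beside 17.4% of all kept genes and beside its RNA level. Over all kept genes, the share was 19.2% at a mean FPKM of 5 to 10. It was 27.3% at 10 to 20, 30% at 20 to 50 and 40.2% at 50 or more. Member genes had a median control FPKM of 226 in the heat shock list, 31.8 in the m6A list and 28.2 in initiation factors. It was 26.3 in core histones, 24.1 in the integrated stress response list, 13.6 in the AP-1 list and 8.73 in the Wnt list. No list was matched for RNA level. Ribosomal proteins, the structural proteins of the ribosome, were the most complete: 60 of 78 genes had a shared 5′ UTR peak (76.9%), in 89 peaks, of which 85 had an FDR of at most 0.001 in both lists. Their median FPKM in the control input was 190, and 40.2% of all kept genes with a mean FPKM of 50 or more were member genes. Fold enrichment was moderate, with medians of 2.56 and 2.68, and was higher in shY2-2 for 61 of the 89 peaks (68.5%), beside 44.7% of all members and 43.7% of all shared peaks. The highest lower values were in RPS14 (8.51 and 10.1) and RPS13 (7.63 and 15.0). Those of RPS13 were held by 551 peaks of the control list and 55 of the shY2-2 list. Yet only 6.38% of the bases of the 89 peaks lay in the reference 5′ UTR, whose median length is 42 nt in this group, and 52.3% lay in introns. Of the 89 peaks, 85 had intronic bases, among them RPS14 with 216 of 240 nt and RPS13 with 362 of 539 nt. Genes of snoRNAs lie in introns of several of these genes. Of the 89 peaks, 5 overlapped one, beside 0.541% of all members and 0.143% of shared 3′ UTR peaks. RPS13 shares exon sequence with the snoRNA gene SNORD14B.

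The RNA of the ribosomal protein genes was higher in shY2-2 for 59 of the 60 member genes, beside 59.9% of all member genes. Their median log2 ratio was 0.35, with a range of -0.10 to 0.64. RPS2 had an FPKM of 940 and 1466 (0.64) and RPS12 283 and 443 (0.64), while RPS13 had 145 and 136 (-0.10). None passed a ratio of 1, beside 0.986% of all kept genes. The 18 ribosomal protein genes without a shared 5′ UTR peak had a median of 0.37, close to the genes with such a peak. They were all higher, beside 50.3% of all kept genes.

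Translation initiation factors, which load the ribosome on the mRNA, had members in 14 of 43 genes (32.6%), in 19 peaks at medians of 2.05 and 2.56. EIF6, which keeps the ribosomal subunits apart, had 12.2 (a value of 80 control peaks) and 7.52 over the first 47 nt of its 5′ UTR and 98 nt of intron, with an FPKM of 119 and 164. EIF5A, the hypusine-carrying elongation and initiation factor, had 3.38 and 3.37. EIF4A1, the helicase that unwinds 5′ UTRs, held 4 members between 1.39 and 6.87 in the control list. Its introns hold snoRNA genes and its exons are shared with the SENP3 readthrough. RNA was higher in shY2-2 for 10 of the 14 genes, beside 59.9% of all member genes, and none passed a ratio of 1 in either direction, beside 0.986% of all kept genes above 1 and 2.14% below -1.

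Heat shock genes, whose 5′ UTR methylation has been studied as a route to translation under stress, had members in 7 of 19 genes (36.8%). All 8 peaks were weak, between 1.10 and 1.97 in the control list and between 1.09 and 1.95 in the shY2-2 list. The peaks of HSPB1 and HSP90AB1 had no base in the reference 5′ UTR. An FDR of at most 0.001 in both lists was reached by 6 of the 8, and the HSPA5 peak had 0.0575 and 0.111. HSPE1, a mitochondrial co-chaperonin, had 1.74 and 1.95, and HSP90AA1, a cytosolic chaperone, 1.5 and 1.51 over the same 300 nt. The RNA of the 7 genes had a median ratio of -0.31 and was higher in shY2-2 for 2, beside 59.9% of all member genes. Over all 19 genes the median was also -0.31, with 3 genes below -1, beside 2.14% of all kept genes.

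AP-1 and immediate early factors, short-lived transcription factors, had members in 6 of 17 kept genes (35.3%) at medians of 4.35 and 2.43, and 2 of the 6 peaks had an FDR of at most 0.001 in both lists. These 2 were the peaks of FOSL2 and IER5. FOSL2 had 5.28 and 8.33 with 558 of 570 nt in its 5′ UTR, and JUN 4.12 and 2.38 with 501 of 541 nt. The JUN peak had an FDR of 7.08e-06 and 0.0363. The RNA of FOSL2 and JUN was lower in shY2-2, at an FPKM of 19.9 and 11.2 for FOSL2 and 13.3 and 5.18 for JUN (log2 ratio -1.21). KLF4, a zinc finger factor of epithelial cells, had 10.7 and 2.60, with an FPKM of 3.87 and 3.71. Its values of 10.7 and 2.60 had an FDR of 0.0132 and 0.0468. Of the 6 genes, 1 was higher in shY2-2, beside 59.9% of all member genes, and the median ratio was -0.51. Over all 17 kept genes of the list the median was -0.32. Of these, 2 genes were above 1 and 1 below -1, beside 0.986% and 2.14% of all kept genes.

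Genes with known upstream open reading frames or roles in the integrated stress response, where the 5′ UTR sets translation, had members in 6 of 18 genes (33.3%) at medians of 2.06 and 1.41. ATF4, the effector of that response, had a 1198 nt peak at 2.27 and 1.56. That peak held 59 nt of 5′ UTR, 1056 nt of coding sequence and 81 nt of 3′ UTR. A further ATF4 peak of 60 nt in the 5′ UTR had 1.18 and 1.16. SLC35A4 had 1.44 and 1.35 over 329 nt of 5′ UTR. EIF2AK1, a kinase that starts the response, had 3.62 and 1.69.

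In the Wnt pathway, which the study followed through AXIN1, 9 of 36 kept genes had members (25.0%), in 11 peaks at medians of 2.73 and 2.24. AXIN1, the scaffold of the β-catenin destruction complex, had a 960 nt peak at 3.43 in the control list, 843 nt of it coding and 117 nt of it 5′ UTR, and a 331 nt partner at 2.45. Both had a low FDR (6.76e-07 and 7.08e-06). The control peak met 2 shY2-2 peaks, and the partner used covered 34.5% of it. The value of 3.43 was held by 250 peaks of the control list and that of 2.45 by 49 of the shY2-2 list. The FPKM of AXIN1 was 5.78 in shNC and 7.77 in shY2-2, a log2 ratio of 0.37. The kinases of the same complex had peaks at 3.86 and 2.71 (GSK3B, all 331 nt in the 5′ UTR), 9.16 and 2.24 (GSK3A, with an FDR of 0.0891 in the shY2-2 list) and 1.43 and 1.23 (CSNK1A1, 0.0562 in that list). CSNK1D, a related casein kinase, had 2.73 and 3.21. An FDR of at most 0.001 in both lists was reached by 3 of the 11 peaks. RNF43, a ubiquitin ligase that removes Wnt receptors, had 3 members and an FPKM of 6.29 and 2.75 (-0.96).

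Of the m6A machinery, 5 of 22 genes had members (22.7%), in 7 peaks at medians of 1.80 and 1.70. METTL3, the catalytic writer, had 3 members, the one with the highest lower value at 2.37 and 1.93 over its 5′ UTR and first coding bases. That peak had an FDR of 0.131 and 0.176 and so passed 0.05 in neither list. The other METTL3 members were at 1.36 and 1.16 and at 1.29 and 4.63. ALKBH5, a demethylase, had 1.85 and 1.49 in coding sequence, and HNRNPA2B1, an RNA-binding protein named as a nuclear reader, 1.84 and 1.78. YTHDF2 had a 718 nt member wholly in coding sequence at 1.80, with a partner of 121 nt at 1.70, and its FDR was 0.0288 and 0.105. Core histones had members in 4 of 14 kept genes (28.6%). Among these, H3F3B, a replication-independent H3.3 gene, had 2.66 and 2.77, with 254 of 538 nt in an intron, while H3F3A had a member at 1.36 and 3.95.

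**Figure D5:**
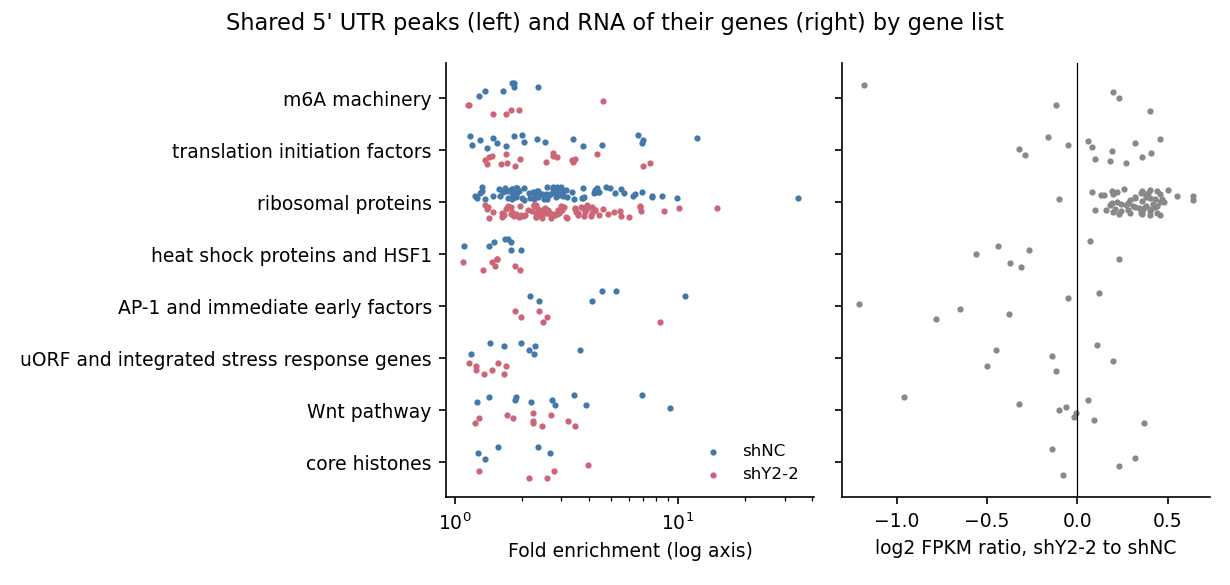
Fold enrichment of each member peak in the control list and of its shY2-2 partner (left, log axis), and log2 FPKM ratio of shY2-2 to shNC of each member gene (right), for 8 gene lists. Heat shock peaks stay under 2 in both lists, and 59 of 60 ribosomal protein genes lie above 0 on the right, beside 59.9% of all member genes.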

How the data were processed

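Members, gene lists and rules for naming genes were chosen with earlier results of these data known. Per the labels and the methods of the study, the authors trimmed reads with fastp, mapped them to GRCh38 with HISAT2, calculated the deposited FPKM values per gene from the input libraries with StringTie and called peaks with exomePeak on 1 IP against 1 input library per condition, with annotation by ChIPseeker; versions are not given in the sources used here. Each deposited fold enrichment is a linear ratio of IP over input. The deposited log10 FDR was used as a score. No count test was run, since FPKM values are not counts, and the depth of the libraries is unknown. Columns with the authors' p-values were not used.

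Duplicate rows were merged, leaving 31057 of 31091 shNC and 27344 of 27355 shY2-2 peaks. Exonic blocks were intersected by strand. Locations came from the GENCODE release 44 canonical transcript of each gene, matched for 2947 of 2955 members, with coordinates counted from 1, and sequences from the GRCh38 genome. GGAC was searched on the transcript strand of the spliced peak. Shares have 95% Wilson intervals and medians exact binomial ones, covering counting only.

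Named genes were the 10 members with the highest lower fold enrichment, the 5 extreme members at either end of the log2 ratio of fold enrichment (both with an FDR of at most 0.001 in both lists and an FPKM of at least 1 in both inputs), the 5 extreme member genes at either end of the RNA ratio, members of 8 gene lists, AXIN1 and YTHDF2. Genes without a standard symbol were left out, and some genes that the rule named are not reported here. ZNF410 and the genes at the edge of the overlap rule were named after their values were seen.

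Alternatives were other overlap rules, a partner rule, stricter peak limits, another pseudocount and filter, any transcript of a gene and the common part of both peaks. The steps were tested on simulated data. Figures were drawn with matplotlib 3.10.9, sequences read with pysam 0.24.0, and values computed in Python 3.11.15 using SciPy 1.17.1, pandas 2.3.3 and NumPy 2.4.6.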

Additional observations from a re-analysis of the deposited data

How the results depend on the processing

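No paired analysis was possible because each condition has 1 library of each kind. Of the 18 alternatives, 17 planned and 1 added after seeing the data, 4 left the value within its interval and 14 moved it. The share of 5′ UTR peaks met by a shY2-2 peak, 61.4%, became 58.5% with 50% of the shorter peak in common, 42.6% with 50% of each, 56.3% with a 5′ UTR partner, 74.8% at an FDR of at most 0.001 in both lists and 51.6% at a fold enrichment of at least 2 in both. The median log2 ratio of fold enrichment, -0.05, was 0.00 with the most enriched partner and 0.00 at the stricter FDR. The median RNA ratio, 0.08, was 0.11 at an FPKM of at least 5 and 0.13 at the stricter FDR, and 0.07 without the ribosomal protein genes (the added alternative). With any transcript of the gene, 90.2% of members in place of 63.0% touched a 5′ UTR and 82.7% in place of 56.6% came within 100 nt of a transcript start, while 40.0% came within 25 nt of the reference start. GGAC stood in 66.8% of the common parts, which are shorter (median 259 nt against 330), and in 85.2% of members at the stricter FDR, which are longer (median 448 nt). The cause of these moves, the part of length in the last ones included, was not tested. With 1 library per condition and unknown depth, differences between the lists cannot be told apart from differences between libraries.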
